A study of Mus musculus with 29 samples.

Results

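The change in gene expression at birth was followed in 6 of the 29 libraries of the series, each made from the alveolar septa of 1 wild-type C57BL/6 mouse for which the labels name no treatment. They came from 2 embryos taken at embryonic day 18.5 (E18.5, embryos 4 and 3), from 2 pups taken at postnatal day 0.5 (P0.5, pups e and f) and from 2 taken at postnatal day 1 (P1, pups d and e). The libraries were taken by their labelled age, and the 4 pups were compared with the 2 embryos. The septa, the thin walls between the future air spaces, were cut by laser capture from frozen sections, so every library mixes the epithelial, endothelial, mesenchymal and blood cells that the walls hold. The embryos weighed 1.146 and 1.043 g and the pups 1.3 to 1.6 g. Values are FPKM, fragments of RNA scaled by transcript length and by the size of the library. Values of single libraries are given in the order embryo 4, embryo 3, P0.5 pup e, P0.5 pup f, P1 pup d and P1 pup e.

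Birth takes the lung within minutes from an organ filled with liquid, poorly perfused and low in oxygen to one filled with air that carries the whole output of the right heart. Low oxygen stabilises the hypoxia-inducible factors (HIF), which switch on glycolysis, glucose uptake and mitophagy genes, and air breathing lets prolyl hydroxylases mark these factors for breakdown. The epithelium turns from secreting chloride and liquid to absorbing sodium through the epithelial sodium channel, vessels widen and meet more flow, and the fuel supply passes from placental glucose and stored glycogen to the fat of milk.

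The 6 libraries were similar in total FPKM and in genes detected, while their read depth is unknown. Embryo 4 stood somewhat further from the pups, with a correlation on log2(FPKM + 1) of 0.830 to 0.868. Embryo 3 gave 0.868 to 0.891 with the pups, and the pups gave 0.872 to 0.914 among themselves. Total FPKM ran from 3.52e+05 to 4.58e+05, 12330 to 12999 genes reached an FPKM of 1, and each library listed at 0 only 4 to 20 of the 8621 protein-coding genes whose median FPKM reached 5. Markers of the septal cells were present in every library. Sftpc, of type 2 cells, lay at 10979 to 20435 FPKM and Ager, of type 1 cells, at 238 to 863 FPKM. Pecam1, of endothelium, at 178 to 310.3 FPKM and Tcf21, of fibroblasts, at 305 to 448 FPKM. The leukocyte gene Ptprc lay at 7.52 to 16.1 FPKM. In 4 of the 6 libraries, both E18.5 and both P0.5, the levels of Xist and of Y-linked genes went against the labelled sex. Each age still held 1 library of each kind, and sex was not used here. The series' design note lists its ages without E18.5, and whether the E18.5 libraries were prepared together with the others is not given in the sources used here, so preparation and age cannot be told apart. Litters are not given either, so p-values measure only the spread between these samples, which may be technical.

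Of 14616 genes tested with limma on log2(FPKM + 1), 397 (2.72%) were higher and 187 (1.28%) lower in the pups at a Benjamini-Hochberg adjusted p under 0.05. All fold changes below are differences on this log2 scale, pups minus embryos, with their standard error, and adjusted p-values come from this limma fit over all genes unless another fit is named. A value in brackets with its error is such a log2 fold change. At an unadjusted p under 0.05 the counts were 1536 (10.5%) and 1086 (7.43%). The median log2 fold change of all genes was 0.06, which is close to no change. The levels of 2417 genes (16.5%) were higher in every pup than in either embryo, and those of 1945 (13.3%) were lower in every pup, so a gap between the groups was much more common than a call. In bulk tissue of this kind, fewer cells of a type and less RNA per cell cannot be told apart. The calls leaned heavily on E18.5 embryo 4: without it 29 genes were called higher and 11 lower, of which 28 and 9 were among the calls with all 6 libraries. Without embryo 3 the counts were 366 and 117, without P1 pup e 189 and 83, and without P1 pup d 234 and 101. No gene called with all libraries changed sign in any of these fits. This was nearly fixed beforehand, because 393 of the 397 and 183 of the 187 had no overlap between embryos and pups. Leaving out 1 library cannot change the sign of such a gene. The calls also rested on the spread pooled over all 15 ages. With limma fitted to the compared ages alone 0 genes were called either way, with 1640 higher and 1256 lower at an unadjusted p under 0.05. When the change had to exceed 1 on the log2 scale, 2 were called higher and 0 lower, with 115 and 77 at an unadjusted p under 0.05. These 2 settings are not repeated at each list below. Among the 87 named genes that were called, 19 were also called without embryo 4, and they are pointed out in turn.

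The 2 newborn ages were not separated by the same test. In P1 against P0.5, limma called 0 genes higher and 0 lower, with 332 (2.27%) and 478 (3.27%) at an unadjusted p under 0.05, and with 2 libraries a side this does not show that the ages were alike. The question of how far the change recurs in other animals was put to libraries that the birth comparison did not use, 4 pups of P1.5 and P2.5 against 2 embryos of E16.5. Over this wider span of age, 1306 genes (8.94%) were higher and 1224 (8.37%) lower. Of the 397 genes that rose at birth, 258 (65.0%, and 19.8% of the 1306) were also called higher there, 4 were called lower, and their median log2 fold change was 1.13. Of the 187 that fell, 74 (39.6%, and 6.05% of the 1224) were also called lower, 7 were called higher, and the median was -0.65. The spread is pooled over all ages in both comparisons, and 135 of the 397 and 106 of the 187 were not called in the second.

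Ppp1r3b, which targets protein phosphatase 1 to glycogen and favours glycogen synthesis, had the largest decrease among called genes with a mean of at least 5 FPKM in the embryos and no overlap between groups. It lay at 86.03 and 177 FPKM in the embryos and 8.58, 10.5, 19.03 and 12.6 FPKM in the pups, a log2 fold change of -3.24 ± 0.51 (adjusted p = 0.00176). The lowest embryo stood far above the highest pup, and the gene was also called without embryo 4. Gnmt, a methyltransferase that uses up S-adenosylmethionine, was at 8.96 and 16.9 FPKM in the embryos and 1.03, 1.26, 0 and 0 FPKM in the pups, a log2 fold change of -3.19 ± 0.51 (adjusted p = 0.00219), and it too was called without embryo 4. Its E16.5 levels of 0.588 and 0 FPKM were as low as those of the pups, so among the libraries from E16.5 to P2.5 those of E18.5 were the highest. The histone gene H4c17 was at 2.69 and 13.8 FPKM in the embryos and was listed at 0 in all 4 pups (adjusted p = 0.0485), and it was not called without embryo 4. Rian, a non-coding RNA of the imprinted Dlk1-Meg3 region on chromosome 12, lay at 214 and 163 FPKM in the embryos and 55.9, 22.9, 19.8 and 16.9 FPKM in the pups, a log2 fold change of -2.81 ± 0.40 (adjusted p = 0.000851), and was called without embryo 4. In each of these 4 genes both embryos were above all pups.

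The remaining large decreases came from genes of varied roles. Dlk1 and Mirg come from the same imprinted region as Rian, with log2 fold changes of -2.59 ± 0.41, adjusted p = 0.00176, and -2.29 ± 0.56, adjusted p = 0.027. Hif3a (-2.75 ± 0.53, adjusted p = 0.00714) and Bnip3 (-2.32 ± 0.36, adjusted p = 0.00176) belong to the response to low oxygen. Lox, which crosslinks collagen and elastin, fell by 2.28 ± 0.42 (adjusted p = 0.0054), and F13a1, the A chain of clotting factor XIII found in tissue macrophages, had a log2 fold change of -2.19 ± 0.54, adjusted p = 0.0285. Atp6v0a4, a subunit of the proton pump (-2.41 ± 0.58, adjusted p = 0.0241), Zbtb8b (-2.42 ± 0.46, adjusted p = 0.00666) and the cyclin gene Ccna1 (-2.39 ± 0.58, adjusted p = 0.0261) completed the group with values above 0 in some pup. Cdc20b (9.20 and 2.88 FPKM in the embryos) and Meig1 (7.72 and 2.50 FPKM) were listed at 0 in every pup. Several of these genes share bases with other annotated genes, among them Rian and Mirg with microRNA genes, Cdc20b with Gpx8 and Gzma, Atp6v0a4 with Tmem213 and Hyal1 with Naa80 and Hyal3, so how reads were shared out between them is uncertain. Of the decreases first given in this paragraph, Dlk1 alone was called without embryo 4.

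Ngp, a granule protein of maturing neutrophils, had the largest increase chosen in the same way, and its level was 0.970 and 0 FPKM in the embryos and 21.03, 3.91, 21.1 and 27.7 FPKM in the pups, a log2 fold change of 3.53 ± 0.85 (adjusted p = 0.0241). S100a9, a calcium-binding protein abundant in neutrophils, was at 94.9 and 6.82 FPKM in the embryos and 471, 183, 478 and 179 FPKM in the pups, a log2 fold change of 3.43 ± 0.70 (adjusted p = 0.01). The embryos themselves lay far apart for S100a9, and every pup was above both. Egr1, an immediate early transcription factor, was at 0 and 1.09 FPKM in the embryos and 11.6, 17.9, 6.19 and 20.3 FPKM in the pups, a log2 fold change of 3.25 ± 0.69 (adjusted p = 0.0126). Thbs3, a thrombospondin of the extracellular matrix, had the smallest p of the named genes, with 0.814 and 2.71 FPKM in the embryos and 20.5, 27.2, 26.8 and 20.8 FPKM in the pups and a log2 fold change of 3.25 ± 0.27 (adjusted p = 3.89e-06). The 2 embryos were both below 3 FPKM and all 4 pups above 20. Thbs3 and S100a9 were also called without embryo 4, and Ngp and Egr1 were not. For S100a9, embryo 4 held the higher embryo level, so leaving it out widened the gap to the pups. The call of S100a9 was lost without embryo 3.

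**Figure D1:**
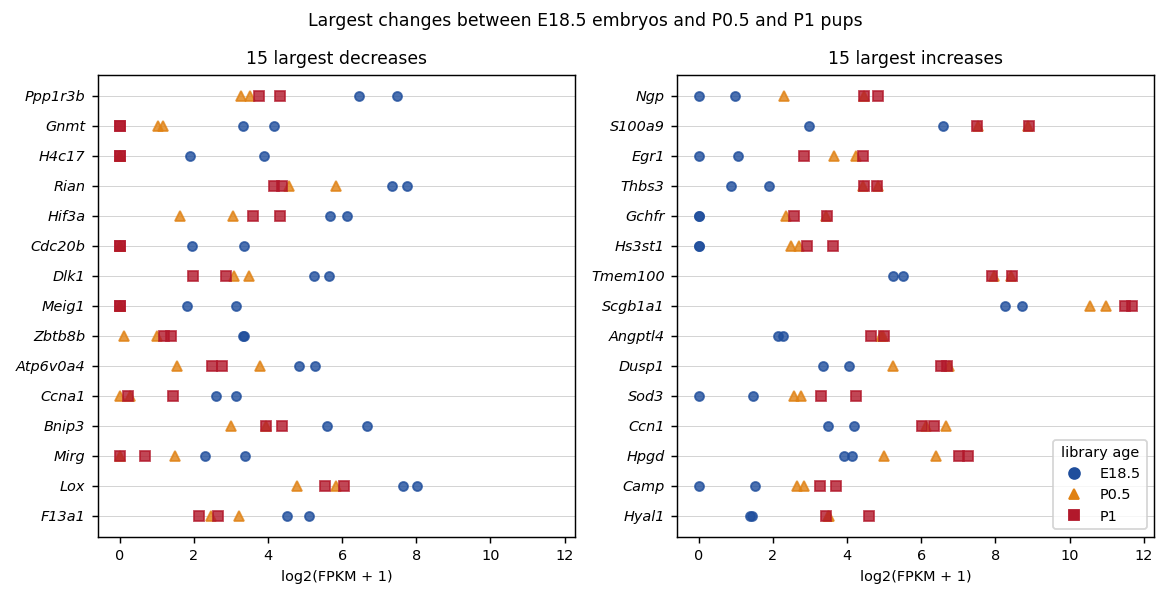
The 15 largest decreases (left) and increases (right) among called genes with a mean of at least 5 FPKM in the higher group, between E18.5 embryos and P0.5 and P1 pups, 1 point per library, with log2(FPKM + 1) on the horizontal axis. Circles are the 2 embryos, triangles the 2 P0.5 pups and squares the 2 P1 pups. In every gene shown the embryos and the pups do not overlap, which the choice of genes requires, and S100a9 shows the widest gap between the 2 embryos.

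The other large increases also came from distinct cell types and roles. Gchfr, a regulator of tetrahydrobiopterin synthesis, and Hs3st1, which sulfates heparan chains, were both listed at 0 in the 2 embryos and reached 4.13, 9.70, 9.95 and 4.94 FPKM and 4.55, 5.55, 6.49 and 11.3 FPKM in the pups (adjusted p = 0.0073 and 0.00176). Scgb1a1, the secretory protein of club cells, rose from 307 and 416 FPKM to 1486, 2009.7, 3304 and 2894 FPKM, a log2 fold change of 2.69 ± 0.61 (adjusted p = 0.0168). Dusp1, a phosphatase that switches off MAP kinases and is induced by stress and by glucocorticoids, lay at 9.22 and 15.6 FPKM in the embryos and 107, 36.5, 101 and 90.8 FPKM in the pups, a log2 fold change of 2.59 ± 0.35 (adjusted p = 0.000613). Ccn1, a matricellular protein induced by stretch and by Yap, lay at 10.1 and 17.1 FPKM in the embryos and 99.6, 68.2, 79.8 and 63.9 FPKM in the pups, a log2 fold change of 2.46 ± 0.24 (adjusted p = 1.99e-05). Hyal1, which degrades hyaluronan, had a log2 fold change of 2.34 ± 0.39, adjusted p = 0.00287. Hs3st1, Dusp1 and Ccn1 passed without embryo 4, and Gchfr, Scgb1a1 and Hyal1 did not. In the other animals Ccn1 was at 10.6 and 9.11 FPKM in the E16.5 embryos and 78.3, 76.97, 77.7 and 60.1 FPKM in the P1.5 and P2.5 pups. The step between the groups there was a log2 fold change of 2.77 ± 0.24 (adjusted p = 1.56e-07). Gchfr was listed at 0 in the 2 E16.5 embryos and in 3 of the 4 pups of P1.5 and P2.5.

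Genes known to be induced by low oxygen were among the decreases at birth. Of 30 tested, 8 fell (26.7%, beside 1.28% of all genes) and 1 rose, and their median log2 fold change was -0.97 beside 0.06 over all genes. A further look at the levels shows 25 of the 30 with a negative fold change and 17 with both embryos above all pups, beside 13.3% of all genes. Bnip3, a receptor that marks mitochondria for breakdown, lay at 100.1 and 47.6 FPKM in the embryos and 14.3, 7.01, 19.8 and 14.4 FPKM in the pups, a log2 fold change of -2.32 ± 0.36 (adjusted p = 0.00176). Kdm3a, a histone demethylase that needs oxygen, lay at 79.7 and 60.7 FPKM in the embryos and 34.6, 18.1, 29.9 and 26.2 FPKM in the pups, a log2 fold change of -1.36 ± 0.25 (adjusted p = 0.00528). Pdk1, a kinase that holds pyruvate out of the mitochondria, lay at 22.6 and 16.4 FPKM in the embryos and 5.80, 3.29, 4.62 and 5.39 FPKM in the pups, a log2 fold change of -1.83 ± 0.40 (adjusted p = 0.015). In none of these 3 did any pup reach the lower embryo. Ak4, a mitochondrial adenylate kinase (-2.11 ± 0.48, adjusted p = 0.0166), P4ha1, a subunit of collagen prolyl hydroxylase (-1.32 ± 0.31, adjusted p = 0.0213), and the hexokinase gene Hk2 (-1.58 ± 0.41, adjusted p = 0.0364) fell as well. So did the oxygen sensor Egln3 (-1.85 ± 0.49, adjusted p = 0.0405) and the glycolytic enzyme gene Tpi1 (-1.64 ± 0.44, adjusted p = 0.0436). Ankrd37 had the most negative fold change of the list, with 26.7 and 38.3 FPKM in the embryos and 1.23, 0, 1.43 and 3.23 FPKM in the pups, and missed the threshold (-3.92 ± 1.10, adjusted p = 0.0519). All 8 decreases were lost without embryo 4 (0 of 30 called), which held the higher level in 5 of the 8 genes, and the counts were 4 without embryo 3, 5 without P1 pup d and 4 without P1 pup e. With a pseudocount of 0.1 in place of 1, 4 were called lower.

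Vegfa, the growth factor of endothelium and a classical target of HIF, went the other way. It was at 146 and 278 FPKM in the embryos and 380.2, 408, 468 and 394 FPKM in the pups, a log2 fold change of 1.03 ± 0.25 (adjusted p = 0.0248), and no longer passed without embryo 4, P1 pup d or P1 pup e, or with quantile normalization. Among glycolysis genes outside the low oxygen list, glucose and lactate transporters included, 0 of 13 passed limma's threshold in either direction. At an unadjusted p under 0.05, 1 was higher and 2 were lower, and their median of -0.12 was near that of all genes. One of them was called lower with quantile normalization and one without 3 libraries of other ages that are rich in zeros. In the other animals these 13 genes gave 0 higher and 6 lower, with a median of -1.07. There the 30 genes induced by low oxygen gave 1 higher and 10 lower, with a median of -0.78, beside 8.94% and 8.37% of all genes. Bnip3 was at 21.5 and 28.99 FPKM in the E16.5 embryos and 16.4, 10.5, 9.47 and 11.2 FPKM in the P1.5 and P2.5 pups, below the E18.5 level before and after. Ankrd37 lay at 3.14 and 0 FPKM in the E16.5 embryos and 0, 3.40, 2.69 and 0.486 FPKM in the P1.5 and P2.5 pups. Levels of these 2 genes were thus higher at E18.5 than at E16.5, as the plot of levels from E16.5 to P2.5 shows for Bnip3.

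The sensors and factors of the oxygen response themselves were split. Epas1, which encodes HIF-2 alpha of endothelium and type 2 cells, rose from 41.3 and 63.8 FPKM in the embryos to 199, 228, 274 and 395 FPKM in the pups, a log2 fold change of 2.34 ± 0.27 (adjusted p = 0.000222), and was called without embryo 4. Hif3a, which encodes a modulator of the other factors and is itself induced by low oxygen and by glucocorticoids, fell from 50.1 and 68.9 FPKM to 7.27, 2.11, 18.9 and 11.1 FPKM, a log2 fold change of -2.75 ± 0.53 (adjusted p = 0.00714). Both changes recurred in the other animals: Epas1 gave a log2 fold change of 3.62 ± 0.27 (adjusted p = 2.43e-08) and Hif3a a log2 fold change of -2.22 ± 0.53 (adjusted p = 0.00687). Hif1a, the factor of most cells, was at 68.6 and 48.3 FPKM in the embryos and 35.7, 30.6, 30.6 and 43.2 FPKM in the pups, a log2 fold change of -0.72 ± 0.31 (adjusted p = 0.222). It missed the threshold although the groups did not overlap. Of the 11 genes in the list 1 rose (9.09%, beside 2.72% of all genes) and 2 fell (18.2%, beside 1.28%), Egln3 being the other decrease. The count of decreases was 0 without E18.5 embryo 4, 0 without E18.5 embryo 3, 1 without P0.5 pup e, 1 without P0.5 pup f and 1 without P1 pup e, and 1 with a pseudocount of 0.1.

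The bases ACGTG form the core of the element that HIF binds, and the windows of 250 bases before the annotated start of the genes that fell are shown because this core can be read in them. ACGTG and its reverse complement CACGT were searched in the RefSeq sequence of build GRCm38.p6, so that both strands are covered. CACGTG, the E-box of other factors, holds both and was counted as well. One or the other was present in 20 of 28 genes induced by low oxygen that had a window (71.4%), beside 16.6% of all 32851 windows, 18.5% of 27025 genes and 23.8% of 11525 genes tested here. It was present in 5 of the 8 that fell and in 4 of 12 other glycolysis genes (33.3%), and among all genes called lower and higher in 30.0% of 140 and 21.9% of 292. The list was drawn up from known targets of low oxygen, so a high share is a property of the list and not of its change. Windows of 120 bases are printed 5′ to 3′ on the strand of the gene, with the matched bases in capitals, for Bnip3 at chr7:138909549-138909668 (minus strand), Egln3 at chr12:54204005-54204124 (minus strand), P4ha1 at chr10:59323176-59323295 (plus strand), Ak4 at chr4:101419453-101419572 (plus strand) and Hk2 at chr6:82774455-82774574 (minus strand).
Bnip3: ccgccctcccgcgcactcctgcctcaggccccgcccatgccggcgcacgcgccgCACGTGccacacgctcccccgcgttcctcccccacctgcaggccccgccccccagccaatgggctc
Egln3: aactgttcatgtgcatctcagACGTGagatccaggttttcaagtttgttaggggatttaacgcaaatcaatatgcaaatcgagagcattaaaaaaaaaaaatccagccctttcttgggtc
P4ha1: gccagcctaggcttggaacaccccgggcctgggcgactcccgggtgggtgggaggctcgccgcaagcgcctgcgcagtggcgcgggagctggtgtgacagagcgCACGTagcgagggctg
Ak4: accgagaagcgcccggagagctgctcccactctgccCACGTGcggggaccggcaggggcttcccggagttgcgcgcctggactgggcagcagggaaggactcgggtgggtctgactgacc
Hk2: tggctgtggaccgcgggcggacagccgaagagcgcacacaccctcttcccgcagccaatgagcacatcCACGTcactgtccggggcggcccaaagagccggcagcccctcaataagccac

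In Bnip3 and Ak4 the capitals spell the palindrome, and in the printed bases of Egln3, P4ha1 and Hk2 a single core with other bases beside it. Hk2 has a further match at -226 from the start, outside the bases printed. Kdm3a, Pdk1 and Tpi1 had no match in their window, which says only that these letters are not there. A match is a description of the sequence and was not tested for binding.

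Genes of glycogen storage and breakdown were also among the decreases. Glycogen is stored in the immature alveolar epithelium and is used up as surfactant is made. Of 19 tested, 3 fell (15.8%, beside 1.28% of all genes) and 0 rose, 17 had a negative fold change, and the median was -0.65 beside 0.06 over all genes. Beside Ppp1r3b, these were Ppp1r3c, another subunit that targets the phosphatase to glycogen, and Pygl, the phosphorylase that breaks glycogen down. Ppp1r3c lay at 81.04 and 62.9 FPKM in the embryos and 13.5, 21.1, 23.2 and 23.9 FPKM in the pups, a log2 fold change of -1.79 ± 0.45 (adjusted p = 0.0298). Pygl lay at 63.3 and 47.8 FPKM in the embryos and 17.6, 18.8, 25.7 and 17.7 FPKM in the pups, a log2 fold change of -1.44 ± 0.29 (adjusted p = 0.00938). For each of the 3 genes every pup was below both embryos. The synthase gene Gys1 was at 16.8 and 13.2 FPKM in the embryos and 5.76, 7.06, 7.95 and 7.62 FPKM in the pups (adjusted p = 0.143). It did not pass, although every pup was below both embryos. Without embryo 4 only Ppp1r3b was called, with 1 of 19, and 5 were called lower without the zero-rich libraries. In the other animals the list gave 0 higher and 3 lower, with a median of -0.69, beside 8.37% of all genes called lower there.

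The core was searched before the glycogen genes too, and was present in 9 of 17 with a window (52.9%). The share was 23.8% of all genes tested and 30.0% of all genes called lower. Whether HIF has a part in these genes was not tested. Both Pygl and Ppp1r3c carried it, Ppp1r3c held the palindrome, and Ppp1r3b had no window. Ppp1r3c has a further match at -189 from the start, outside the bases printed. The windows lie at chr12:70227750-70227869 (minus strand) and chr19:36736643-36736762 (minus strand), and they are printed as above because these genes fell at birth.
Pygl: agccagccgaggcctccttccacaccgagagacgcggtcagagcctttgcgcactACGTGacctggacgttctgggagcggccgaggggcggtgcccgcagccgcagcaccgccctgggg
Ppp1r3c: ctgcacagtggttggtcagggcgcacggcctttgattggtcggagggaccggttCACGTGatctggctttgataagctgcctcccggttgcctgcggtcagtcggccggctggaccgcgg

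A few genes of fat use rose at birth. Of 31 genes of fatty acid oxidation and PPAR targets, 3 rose (9.68%, beside 2.72% of all genes) and 0 fell, with a median of 0.02 beside 0.06. Cpt1a, which admits long fatty acids to the mitochondria and limits their oxidation, lay at 14.4 and 22.3 FPKM in the embryos and 47.9, 47.5, 51.1 and 53.6 FPKM in the pups, a log2 fold change of 1.42 ± 0.21 (adjusted p = 0.0015). Ucp2, a carrier of the inner mitochondrial membrane, lay at 10.5 and 12.2 FPKM in the embryos and 34.2, 27.03, 40.8 and 46.9 FPKM in the pups, a log2 fold change of 1.61 ± 0.25 (adjusted p = 0.00176). Angptl4, a secreted inhibitor of lipoprotein lipase, lay at 3.84 and 3.35 FPKM in the embryos and 30.4, 29.2, 31.1 and 23.9 FPKM in the pups, a log2 fold change of 2.68 ± 0.48 (adjusted p = 0.00457). The pups were tightly grouped for Cpt1a and Angptl4, and every pup was above both embryos for all 3 genes. None of the 3 passed without embryo 4 (0 of 31), yet all were called higher in the other animals, Cpt1a with a log2 fold change of 1.56 ± 0.21 (adjusted p = 5.95e-05). The whole list there gave 5 higher and 5 lower, with a median of -0.13, beside 8.94% and 8.37% of all genes. The enzymes of the oxidation spiral itself, such as Acadm (-0.45 ± 0.45, adjusted p = 0.67), did not pass.

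Some genes of lung liquid absorption rose at birth. Of 23 tested, 4 rose (17.4%) and 1 fell (4.35%), beside 2.72% and 1.28% of all genes, with a median of 0.15. Scnn1a, the alpha subunit of the epithelial sodium channel, lay at 24.4 and 29.04 FPKM in the embryos and 56.2, 32.7, 84.7 and 90.8 FPKM in the pups, a log2 fold change of 1.18 ± 0.30 (adjusted p = 0.0344). P0.5 pup f, the lowest pup, was only slightly above the higher embryo. Sgk1, the kinase that keeps the channel at the cell surface, lay at 20.5 and 11.6 FPKM in the embryos and 74.2, 39.7, 63.5 and 64.7 FPKM in the pups, a log2 fold change of 1.86 ± 0.28 (adjusted p = 0.0015). Nedd4l, the ubiquitin ligase that removes the channel, lay at 25.01 and 43.9 FPKM in the embryos and 17.02, 10.7, 18.6 and 17.6 FPKM in the pups, a log2 fold change of -1.04 ± 0.29 (adjusted p = 0.0489), and so moved opposite to Sgk1. The beta and gamma subunits had every pup above both embryos and did not pass. Scnn1b was at 5.02 and 7.40 FPKM in the embryos and 14.6, 19.1, 14.7 and 17.1 FPKM in the pups (1.28 ± 0.45, adjusted p = 0.124). Scnn1g was at 21.2 and 27.1 FPKM in the embryos and 37.9, 28.1, 69.2 and 55.9 FPKM in the pups (0.88 ± 0.30, adjusted p = 0.107).

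The water channel gene Aqp5 of type 1 cells had the largest change of this list. It lay at 8.15 and 23.4 FPKM in the embryos and 70.2, 62.05, 61.4 and 93.6 FPKM in the pups, a log2 fold change of 2.26 ± 0.31 (adjusted p = 0.000717), and was at 0.539 and 0.287 FPKM in the E16.5 embryos. Adrb1, a receptor for adrenaline, whose surge at birth drives liquid absorption, rose with a log2 fold change of 1.72 ± 0.29 (adjusted p = 0.00336). On the side of secretion, the sodium-potassium-chloride carrier gene Slc12a2 lay at 106 and 71.2 FPKM in the embryos and 49.2, 27.4, 46.2 and 48.7 FPKM in the pups (-1.04 ± 0.31, adjusted p = 0.0613). The chloride channel gene Cftr lay at 26.7 and 33.6 FPKM in the embryos and 18.5, 15.2, 14.7 and 17.2 FPKM in the pups (-0.84 ± 0.37, adjusted p = 0.231). Both had every pup below both embryos, and neither passed the test. Aqp5 and Sgk1 were called without embryo 4 and Scnn1a and Adrb1 were not, and the call of Nedd4l was lost without any 1 of embryo 4, embryo 3, P0.5 pup f, P1 pup d or P1 pup e, while 4 members were called lower without P0.5 pup e. With a pseudocount of 0.1 none was called lower, and with median ratio scaling 2 were. The other animals gave 9 higher and 0 lower, with a median of 0.56, beside 8.94% and 8.37% of all genes.

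Surfactant protein genes gave no calls at birth, where the share of all genes called would give fewer than 1. Limma called 0 of 21 surfactant protein and lamellar body genes in either direction (3 and 4 were higher and lower at an unadjusted p under 0.05), with a median of -0.07. Sftpb, which spreads the surfactant film, lay at 156 and 143 FPKM in the embryos and 218, 236, 284 and 253 FPKM in the pups (95% interval of the log2 fold change 0.28 to 1.16). Sftpd lay at 125 and 71.9 FPKM in the embryos and 219.9, 108, 257 and 208 FPKM in the pups (interval 0.19 to 1.78). Lamp3, of the lamellar body membrane, lay at 568 and 342 FPKM in the embryos and 292, 192, 288 and 223 FPKM in the pups (interval -1.51 to -0.17). Sftpb was higher and Lamp3 lower in every pup than in either embryo, so the lack of a call does not show that they were alike. One member was called higher with a filter at 5 FPKM and one lower without the zero-rich libraries. Against E16.5 the same genes gave 15 higher and 0 lower, with a median of 1.98, beside 8.94% and 8.37% of all genes. Sftpd was at 1.08 and 0 FPKM in the E16.5 embryos and 183, 129, 228 and 148 FPKM in the P1.5 and P2.5 pups. Of 28 genes of lipid synthesis, 2 rose (7.14%) and 1 fell (3.57%), beside 2.72% and 1.28% of all genes. Scd2, a fatty acid desaturase, lay at 321 and 379 FPKM in the embryos and 104, 109.9, 132 and 154 FPKM in the pups, a log2 fold change of -1.49 ± 0.19 (adjusted p = 0.000413). It was the one gene of the list called without embryo 4, and 2 were called lower without P0.5 pup e or without the zero-rich libraries. Elovl1, which lengthens fatty acids (1.34 ± 0.26, adjusted p = 0.00741), rose, and neither increase of the list was called without embryo 4. Elovl1 was called in each fit without 1 of the other 5 libraries, and it was the only increase called without P0.5 pup e, P1 pup d or P1 pup e.

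Some genes of type 1 cells, the thin cells through which gas passes, rose at birth. Of 23 tested, 5 rose (21.7%, beside 2.72% of all genes) and 0 fell, 20 had a positive fold change, and the median was 0.62. The list shares Aqp5 with that of lung liquid. Col4a3 and Col4a4, chains of the type IV collagen of the alveolar basement membrane, were both among them. Col4a3 lay at 23.2 and 22.9 FPKM in the embryos and 50.4, 49.9, 72.5 and 70.6 FPKM in the pups (1.34 ± 0.21, adjusted p = 0.00176), and Col4a4 had a fold change close to it (1.15 ± 0.23, adjusted p = 0.0083). Ager, the receptor that defines these cells, lay at 238 and 283 FPKM in the embryos and 454, 426, 863 and 753 FPKM in the pups, a log2 fold change of 1.20 ± 0.24 (adjusted p = 0.00939). Spock2, a matrix proteoglycan, rose with a log2 fold change of 1.55 ± 0.28 (adjusted p = 0.00492). Within the pups, both P1 levels of Ager, Col4a3 and Spock2 were above both P0.5 levels. These genes were picked with their values in view, and the share of all genes in this order was not computed. In P1 against P0.5 limma called 0 genes higher. Other markers of the same cells overlapped or went the other way, such as Hopx, at 104 and 102 FPKM in the embryos and 63.1, 50.3, 129.9 and 126 FPKM in the pups. Cav1 was at 501 and 308 FPKM in the embryos and 227, 169.6, 324 and 276 FPKM in the pups (-0.70 ± 0.25, adjusted p = 0.131). The call of Col4a3 and that of Aqp5 held without embryo 4 (2 of 23), and 8 were called without P0.5 pup f.

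**Figure D2:**
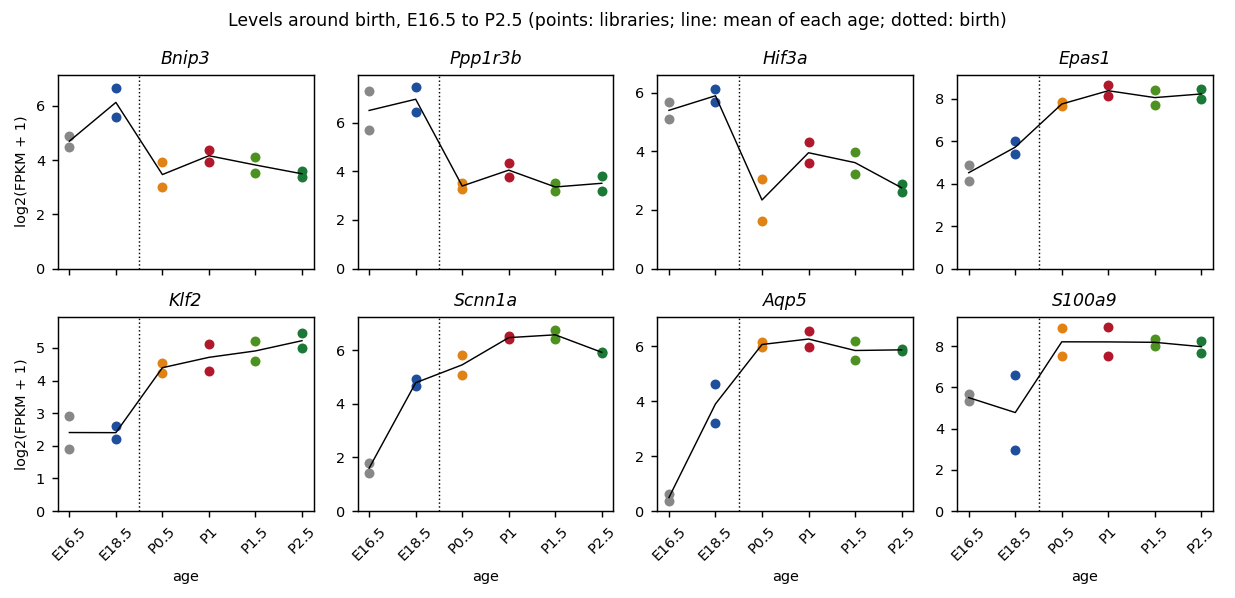
Levels of 8 genes from E16.5 to P2.5 on the log2(FPKM + 1) scale, 1 point per library, with a line through the mean of each age and a dotted line at birth. Bnip3 is highest at E18.5, Ppp1r3b and Hif3a drop across birth, and Epas1, Klf2, Scnn1a, Aqp5 and S100a9 are higher in all pups than in the E18.5 embryos.

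Endothelial genes rose in 9 of 30 tested (30.0%, beside 2.72% of all genes), with 1 lower and a median of 0.69. Tmem100, a target of BMP signalling through Acvrl1 in pulmonary endothelium, lay at 44.5 and 36.5 FPKM in the embryos and 340.5, 249, 237 and 346 FPKM in the pups, a log2 fold change of 2.81 ± 0.33 (adjusted p = 0.000222). Acvrl1 itself, the receptor, lay at 40.3 and 47.9 FPKM in the embryos and 89.6, 119, 141 and 148 FPKM in the pups, a log2 fold change of 1.45 ± 0.22 (adjusted p = 0.00165). Plvap, which forms the diaphragms of endothelial openings, lay at 8.84 and 12.9 FPKM in the embryos and 34.1, 59.5, 66.3 and 72.7 FPKM in the pups, a log2 fold change of 2.28 ± 0.31 (adjusted p = 0.000613). No pup reached down to an embryo in any of the 3. Tek, the angiopoietin receptor (1.21 ± 0.20, adjusted p = 0.0024), the peptide Apln (1.43 ± 0.28, adjusted p = 0.00707), and von Willebrand factor Vwf (1.48 ± 0.32, adjusted p = 0.0128) rose as well. Car4 (1.10 ± 0.27, adjusted p = 0.0242), the junction protein Cldn5 (1.37 ± 0.29, adjusted p = 0.0135) and Cd93 (0.70 ± 0.19, adjusted p = 0.0447) completed the 9. Emcn, a sialomucin of veins and capillaries, fell, from 69.1 and 82.1 FPKM to 28.01, 28.5, 38.8 and 26.9 FPKM, a log2 fold change of -1.29 ± 0.34 (adjusted p = 0.0377). The general marker Pecam1 was at 310.3 and 215 FPKM in the embryos and 209.5, 178, 269 and 263 FPKM in the pups. Kdr, the receptor for Vegfa, was at 104 and 96.3 FPKM in the embryos and 85.5, 107, 128 and 152 FPKM in the pups. Both overlapped between the groups. Tmem100 and Plvap alone were called without embryo 4 (2 of 30), and 6 were called without P1 pup e, and the single decrease was lost with quantile normalization and in every fit without 1 library except that without P1 pup d.

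Flow-responsive genes of endothelium had the highest share of calls of all 36 lists, 11 of 20 higher (55.0%, beside 2.72% of all genes) and 0 lower. Their median was 1.13 beside 0.06. The list was not split by the direction in which flow moves each member. Klf2, the transcription factor induced by laminar shear, lay at 3.58 and 5.10 FPKM in the embryos and 22.4, 17.8, 18.5 and 34.1 FPKM in the pups, a log2 fold change of 2.15 ± 0.37 (adjusted p = 0.00366). Klf4, its relative, lay at 20.8 and 17.9 FPKM in the embryos and 88.2, 33.5, 59.2 and 80.5 FPKM in the pups, a log2 fold change of 1.62 ± 0.29 (adjusted p = 0.00492). Piezo1, an ion channel opened by stretch of the membrane, lay at 10.8 and 12.8 FPKM in the embryos and 23.5, 33.6, 29.4 and 33.5 FPKM in the pups, a log2 fold change of 1.27 ± 0.21 (adjusted p = 0.00287). Every pup exceeded both embryos in all 3 genes, with P0.5 pup f nearest to the embryos for Klf4. Thbs1, an adhesive glycoprotein of platelets and vessel wall, lay at 38.5 and 42.3 FPKM in the embryos and 148, 104, 115 and 145 FPKM in the pups, a log2 fold change of 1.63 ± 0.20 (adjusted p = 0.000322). Smad6, an inhibitor of BMP signalling (2.31 ± 0.37, adjusted p = 0.00186), the anticoagulant receptor gene Thbd (0.99 ± 0.22, adjusted p = 0.0157), the junction protein gene Heg1 (1.17 ± 0.22, adjusted p = 0.00591) and the sphingosine phosphate receptor gene S1pr1 (0.90 ± 0.21, adjusted p = 0.0214) rose as well. Slc9a3r2 (1.31 ± 0.33, adjusted p = 0.033), the connexin gene Gja4 (1.55 ± 0.41, adjusted p = 0.0398) and Cyp1a1 (1.90 ± 0.51, adjusted p = 0.0413) completed the 11.

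Nos3, the endothelial nitric oxide synthase that flow also raises, lay at 1.62 and 1.71 FPKM in the embryos and 5.46, 2.84, 3.07 and 2.88 FPKM in the pups with a log2 fold change of 0.74 ± 0.44 (adjusted p = 0.408), so it did not pass although its groups did not overlap. Without embryo 4, only Thbs1 was called (1 of 20), and the counts without P1 pup e and without P1 pup d were 6 and 8. In other animals the list gave 11 higher and 1 lower, with a median of 1.08, beside 8.94% and 8.37% of all genes. Klf2 there was at 2.70 and 6.59 FPKM in the E16.5 embryos and 23.1, 36.3, 30.9 and 42.5 FPKM in the P1.5 and P2.5 pups, a log2 fold change of 2.66 ± 0.37 (adjusted p = 6.72e-05). For Thbs1 the levels were 85.8 and 84.3 FPKM in the E16.5 embryos and 128, 95.3, 114 and 104 FPKM in the P1.5 and P2.5 pups. It was not called, with a log2 fold change of 0.36 ± 0.20 (adjusted p = 0.229), and its E16.5 level was close to that of the pups.

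**Figure D3:**
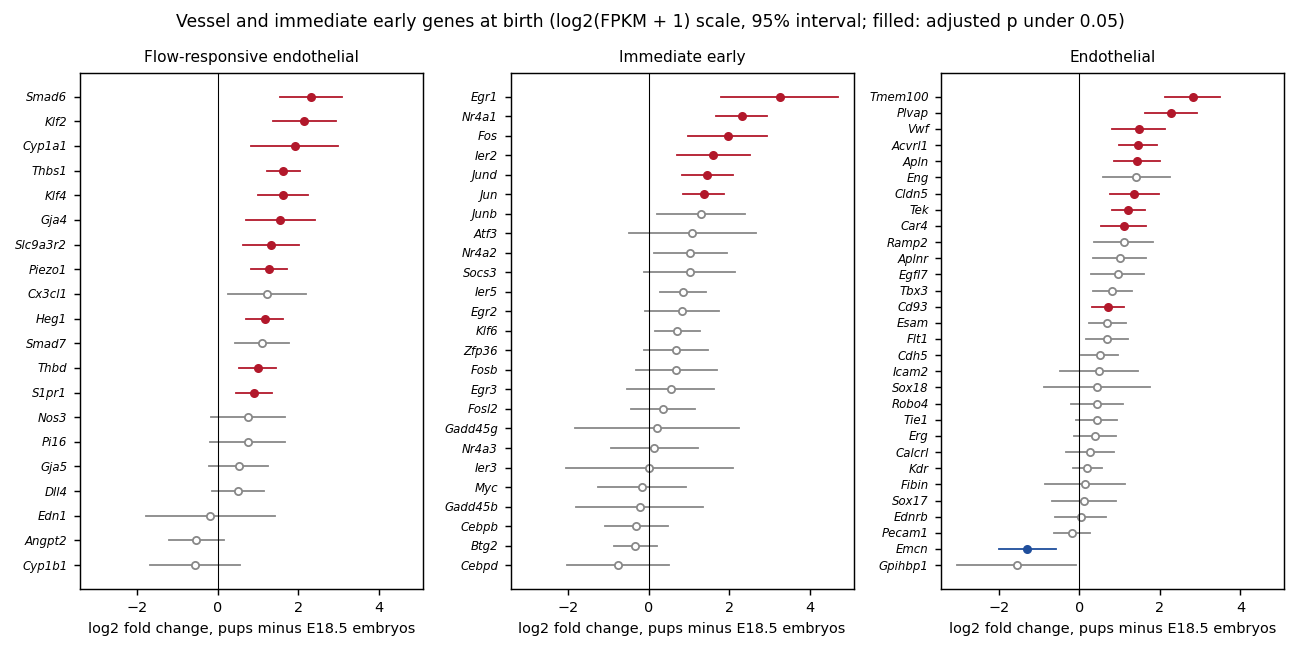
Log2 fold changes between the 4 pups and the 2 E18.5 embryos, with 95% intervals from limma, for 20 flow-responsive endothelial genes (left), 25 immediate early genes (middle) and 30 endothelial genes (right). Filled red points passed as higher (11, 6 and 9), the filled blue point in the right panel, Emcn, passed as lower, and open grey points did not pass.

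Among vascular tone genes 4 of 39 rose (10.3%) and 1 fell (2.56%), beside 2.72% and 1.28% of all genes, with a median of 0.15, and the 4 serve prostaglandin handling, endothelin and natriuretic peptide. Hpgd, which inactivates prostaglandins, lay at 16.6 and 14.2 FPKM in the embryos and 30.8, 82.8, 151 and 129.6 FPKM in the pups, a log2 fold change of 2.38 ± 0.43 (adjusted p = 0.00459). Slco2a1, which carries prostaglandins into the cell for that step, lay at 25.6 and 34.7 FPKM in the embryos and 47.5, 33.1, 86.7 and 87.5 FPKM in the pups, a log2 fold change of 0.96 ± 0.24 (adjusted p = 0.0277), and P0.5 pup f overlapped embryo 3. Ece1, which activates endothelin (1.16 ± 0.26, adjusted p = 0.0171), and Npr1, the receptor for atrial natriuretic peptide (0.91 ± 0.23, adjusted p = 0.033), rose too. Gucy1b1, a subunit of the enzyme that answers nitric oxide, fell from 147 and 79.7 FPKM to 65.2, 48.5, 60.6 and 59.8 FPKM, a log2 fold change of -0.89 ± 0.24 (adjusted p = 0.041). Its level of 147 FPKM in embryo 4 stood well above that of embryo 3. Without embryo 4 none of the 5 was called, and of the increases 2 were called without embryo 3, 2 without P1 pup d and 1 without P1 pup e. The decrease was lost without P0.5 pup f, P1 pup d or P1 pup e and with quantile normalization, and 2 were called lower without P0.5 pup e.

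Immediate early genes are switched on within minutes of stretch, growth factors or stress. Of 25 tested, 6 rose (24.0%, beside 2.72% of all genes) and 0 fell, with a median of 0.72. Nr4a1, a nuclear receptor of this class, lay at 1.56 and 3.18 FPKM in the embryos and 21.1, 13.2, 15.9 and 12.2 FPKM in the pups, a log2 fold change of 2.32 ± 0.30 (adjusted p = 0.000521). Jun lay at 27.1 and 37.5 FPKM in the embryos and 73.9, 63.8, 101 and 105 FPKM in the pups, a log2 fold change of 1.37 ± 0.24 (adjusted p = 0.00457). Its partner Fos was at 1.48 and 3.72 FPKM in the embryos and 22.1, 7.36, 12.7 and 11.0 FPKM in the pups, a log2 fold change of 1.96 ± 0.47 (adjusted p = 0.024). Jund (1.46 ± 0.30, adjusted p = 0.0107) and Ier2 (1.61 ± 0.43, adjusted p = 0.0412) rose besides Egr1. All pups were above both embryos in each of the 6. Only Nr4a1 was called without embryo 4, and 4 were called without embryo 3 and 4 without P1 pup d. In other animals the list gave 13 higher and 0 lower, with a median of 1.42, beside 8.94% and 8.37% of all genes. Of 18 stretch and Yap genes, both targets and factors, Ccn1 alone passed (5.56%, beside 2.72% of all genes), with a median of 0.47. In 9 of the 18 every pup was above both embryos, beside 16.5% of all genes. At an unadjusted p under 0.05, 8 were higher and 1 lower, beside 10.5% and 7.43% of all genes. Ccn2, a relative of Ccn1, lay at 43.4 and 31.02 FPKM in the embryos and 52.6, 49.6, 49.6 and 64.2 FPKM in the pups (0.54 ± 0.20, adjusted p = 0.158).

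Matrix genes had 9 increases (23.7%) and 2 decreases (5.26%) among 38 tested, beside 2.72% and 1.28% of all genes. Their median was 0.55. Tnc, tenascin C of the growing septum, lay at 24.9 and 40.6 FPKM in the embryos and 85.2, 221, 109 and 104 FPKM in the pups, a log2 fold change of 1.89 ± 0.32 (adjusted p = 0.00287). Fbln2, a fibulin of basement membranes and elastic fibres, lay at 7.95 and 12.4 FPKM in the embryos and 62.8, 40.9, 40.8 and 28.2 FPKM in the pups, a log2 fold change of 1.95 ± 0.35 (adjusted p = 0.00488). Col1a1, a chain of type I collagen, lay at 31.3 and 40.3 FPKM in the embryos and 104, 143, 74.8 and 88.9 FPKM in the pups, a log2 fold change of 1.46 ± 0.31 (adjusted p = 0.0132). Embryos and pups did not overlap in these genes, and P0.5 pup f was the highest pup for Tnc and Col1a1. Loxl2 (1.36 ± 0.25, adjusted p = 0.0054), Ltbp2 (1.45 ± 0.28, adjusted p = 0.00647), Sparc (1.14 ± 0.24, adjusted p = 0.0128), Col5a1 (1.12 ± 0.24, adjusted p = 0.013), Vcan (1.08 ± 0.26, adjusted p = 0.0266) and Col12a1 (1.12 ± 0.30, adjusted p = 0.0388) were the other increases.

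Lox and Loxl2, enzymes of one family, moved in opposite directions. Lox lay at 257 and 197 FPKM in the embryos and 55.5, 26.4, 64.8 and 45.1 FPKM in the pups. Loxl2 was at 23.3 and 39.04 FPKM in the embryos and 57.4, 95.98, 94.4 and 75.6 FPKM in the pups. The other decrease was Col14a1, a collagen found on the surface of fibrils (52.5 and 50.5 FPKM in the embryos and 26.2, 13.4, 17.3 and 12.1 FPKM in the pups, -1.58 ± 0.32, adjusted p = 0.00869). Elastin itself, Eln, was at 199 and 312 FPKM in the embryos and 357, 252, 354 and 411 FPKM in the pups (0.44 ± 0.27, adjusted p = 0.433), and its groups overlapped. None of the 11 was called without embryo 4. Against E16.5, 7 of the 9 increases were not called higher, Tnc and Ltbp2 being the exceptions. Col1a1 was at 76.3 and 151 FPKM in the E16.5 embryos and 77.6, 106, 75.4 and 110.2 FPKM in the P1.5 and P2.5 pups. Vcan lay at 185 and 189.9 FPKM in the E16.5 embryos and 67.4, 71.1, 64.2 and 73.6 FPKM in the P1.5 and P2.5 pups. For these 2 genes the E18.5 libraries were low beside animals both younger and older. Lox in contrast fell there too, a log2 fold change of -2.20 ± 0.42 (adjusted p = 0.0013).

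Of 22 contractile and mesenchymal genes, 4 (18.2%), all contractile, rose and 2 (9.09%), Pdgfra and Hhip, fell (median 0.59). Over all genes the shares were 2.72% and 1.28%. Des, desmin of muscle cells and pericytes, lay at 3.91 and 5.96 FPKM in the embryos and 25.4, 30.2, 19.99 and 27.9 FPKM in the pups, a log2 fold change of 2.19 ± 0.31 (adjusted p = 0.000851), and was called without embryo 4. Tagln lay at 34.9 and 25.9 FPKM in the embryos and 54.7, 105, 117 and 83.1 FPKM in the pups, a log2 fold change of 1.49 ± 0.33 (adjusted p = 0.0148). Cnn1 (1.95 ± 0.43, adjusted p = 0.0157) and Actg2 (1.64 ± 0.37, adjusted p = 0.0171), both of smooth muscle, rose likewise and, like Tagln, were not called without that embryo. Pdgfra, the receptor that marks the fibroblasts of the septum, lay at 88.5 and 70.9 FPKM in the embryos and 33.5, 38.6, 27.98 and 20.7 FPKM in the pups, a log2 fold change of -1.40 ± 0.21 (adjusted p = 0.00165). Hhip, which binds hedgehog ligands, lay at 127 and 108 FPKM in the embryos and 44.2, 68.2, 63.98 and 56.3 FPKM in the pups, a log2 fold change of -1.02 ± 0.22 (adjusted p = 0.0148). All pups were below both embryos for these 2, and neither was called without embryo 4. The mesenchymal gene Tgfbi went the other way and was not called. It was at 70.6 and 120 FPKM in the embryos and 140, 289, 273 and 263 FPKM in the pups. Over the list, 9 genes were higher in every pup than in both embryos and 4 lower, beside 16.5% and 13.3% of all genes. Acta2, the smooth muscle actin, was at 96.8 and 80.8 FPKM in the embryos and 80.97, 243, 155 and 127 FPKM in the pups (0.66 ± 0.34, adjusted p = 0.314). In the E16.5 embryos Des was at 19.5 and 18.5 FPKM, well above the E18.5 level.

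Imprinted and fetal growth genes fell in 4 of 22 tested (18.2%, beside 1.28% of all genes) and rose in 1, with a median of -0.37. Dlk1, a membrane protein of fetal cells expressed from the paternal copy, lay at 36.5 and 49.4 FPKM in the embryos and 10.2, 7.46, 2.94 and 6.34 FPKM in the pups, a log2 fold change of -2.59 ± 0.41 (adjusted p = 0.00176), and was called without embryo 4. Cdkn1c, an inhibitor of the cell cycle expressed from the maternal copy, lay at 117 and 143 FPKM in the embryos and 54.7, 43.1, 47.01 and 48.4 FPKM in the pups, a log2 fold change of -1.41 ± 0.28 (adjusted p = 0.00869). Grb10 (-0.80 ± 0.20, adjusted p = 0.0268) and Igf2r (-0.84 ± 0.21, adjusted p = 0.0298) were the others, so both paternally and maternally expressed genes were among the decreases. Igfbp5, which binds insulin-like growth factors, rose from 19.8 and 47.4 FPKM to 174, 123, 55.2 and 79.2 FPKM, a log2 fold change of 1.65 ± 0.26 (adjusted p = 0.00176). In the other animals it was at 135 and 146 FPKM in the E16.5 embryos and 58.1, 70.8, 97.5 and 109 FPKM in the P1.5 and P2.5 pups, lower after birth than before. Igf2 was at 64.7 and 138 FPKM in the embryos and 108, 50.2, 50.6 and 56.97 FPKM in the pups, and its groups overlapped. H19 was at 337 and 518 FPKM in the embryos and 289, 181, 217 and 239 FPKM in the pups (-0.87 ± 0.33, adjusted p = 0.157). Neither was called, and H19 had been far higher before, at 2195 and 1986 FPKM at E16.5. The counts of decreases were 1 without E18.5 embryo 4, 2 without E18.5 embryo 3 and 2 without P1 pup e, and Igfbp5 was not called without embryo 4.

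Genes of DNA replication and mitosis gave a result that turned on 1 pup. Of 40 tested, 1 was called lower (2.50%, beside 1.28% of all genes) and 0 higher, with a median of -0.57. Mki67, the common marker of dividing cells, lay at 162 and 183 FPKM in the embryos and 32.2, 239.8, 47.7 and 18.1 FPKM in the pups, a log2 fold change of -1.73 ± 0.55 (adjusted p = 0.0883). Top2a lay at 66.7 and 52.9 FPKM in the embryos and 7.36, 58.7, 14.8 and 7.47 FPKM in the pups, a log2 fold change of -1.91 ± 0.56 (adjusted p = 0.0613). P0.5 pup f was above both embryos for Mki67 and between them for Top2a. For both genes the other 3 pups were far below the embryos. Cenpf, of the kinetochore, was the single call, at 34.6 and 32.1 FPKM in the embryos and 2.33, 33.6, 4.66 and 4.11 FPKM in the pups, a log2 fold change of -2.18 ± 0.55 (adjusted p = 0.033), and was lost without embryo 4, embryo 3, P1 pup d or P1 pup e. P0.5 pup f was the highest of the 4 pups in 38 of the 40 genes, beside 30.2% of all genes tested. In 24 of the 40 both embryos were above the other 3 pups, and the share of all genes in this order was not computed. Pup f was set apart with these values in view. Without P0.5 pup e 3 were called lower. Without pup f, 12 of 40 fell and the median was -0.94.

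The median of the 40 genes on the log2(FPKM + 1) scale was 3.35 and 3.30 in the E18.5 embryos, 2.17 in P0.5 pup e, 4.19 in P0.5 pup f, 2.44 in P1 pup d and 1.89 in P1 pup e. Around this span it was 5.24 and 5.13 at E16.5 and 2.05 to 2.82 at P1.5 and P2.5. Pup f thus stood above every other library from E18.5 to P2.5. It was not unusual in body weight, 1.3 g, or in total FPKM, and the cause was not tested. The direction of the list, embryos above pups, was the same with and without it.

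**Figure D4:**
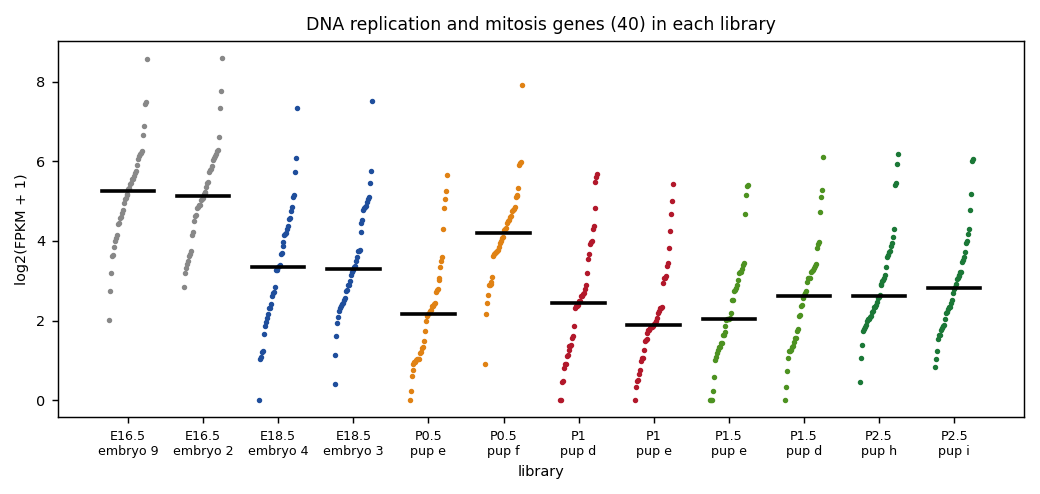
Levels of the 40 genes of DNA replication and mitosis in each library from E16.5 to P2.5, 1 point per gene on the log2(FPKM + 1) scale, with the median as a black line. The median is highest in the 2 E16.5 embryos, lower in the E18.5 embryos and lowest in P1 pup e, and P0.5 pup f stands above the other pups at 4.19.

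Neutrophil genes rose in 5 of 15 tested (33.3%, beside 2.72% of all genes), with a median of 1.49. Beside Ngp and S100a9 these were a receptor gene, Csf3r, and the granule protein genes Ltf and Camp. Csf3r lay at 0.552 and 0.422 FPKM in the embryos and 3.45, 5.59, 4.73 and 3.01 FPKM in the pups (1.78 ± 0.40, adjusted p = 0.0168). Ltf was at 1.84 and 0.266 FPKM in the embryos and 8.79, 2.57, 12.7 and 6.53 FPKM in the pups (2.03 ± 0.48, adjusted p = 0.0231). Every pup was above both embryos for these and for Camp, which was at 1.86 and 0 FPKM in the embryos and 5.21, 6.07, 8.65 and 11.9 FPKM in the pups (2.35 ± 0.61, adjusted p = 0.0355). S100a8, whose product pairs with that of S100a9, was at 49.7 and 50.2 FPKM in the embryos and 64.4, 17.4, 79.8 and 28.4 FPKM in the pups (adjusted p = 0.938), and its groups overlapped. Mpo, Elane, Prtn3 and Ctsg, of the earliest granules, were listed at 0 in all 6 libraries. The counts were 1 without E18.5 embryo 4, 0 without E18.5 embryo 3, 2 without P1 pup d and 3 without P1 pup e, S100a9 being the gene called without embryo 4. With a pseudocount of 0.1 in place of 1, 2 were called. In the other animals the list gave 10 higher and 0 lower, with a median of 2.19, beside 8.94% and 8.37% of all genes.

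Of the other blood and immune lists, the macrophage list had 1 increase in 24 (4.17%, beside 2.72% of all genes). This was Csf2ra, a receptor chain for the GM-CSF that alveolar macrophages need to mature. It was at 1.93 and 2.77 FPKM in the embryos and 10.1, 17.4, 8.84 and 13.7 FPKM in the pups (1.98 ± 0.44, adjusted p = 0.0164), and the call was lost without embryo 4. Limma called 0 genes among 26 induced by interferon, 16 chemokines and cytokines, 13 lymphocyte, 9 platelet, 6 erythroid and 2 MHC class II genes. At an unadjusted p under 0.05 the interferon list had 0 and 1 members higher and lower, the chemokine list 2 and 0, the lymphocyte list 3 and 0, the platelet list 1 and 0, the erythroid list 0 and 1 and the MHC list 0 and 0. With a pseudocount of 0.1, 2 lymphocyte genes were called higher. Marker genes of cells that the cut may have included were also examined. Club cell genes had 1 increase in 8, Scgb1a1 (12.5%, beside 2.72% of all genes), with 5 positive and 3 negative fold changes. Their summed FPKM was 1321 and 1145 in the embryos and 2887, 2462, 3822 and 3290.1 in the pups, so all pups were above both embryos. Scgb1a1 made up the larger part of this sum in every pup, so the sum does not show a rise of the other members. Ciliated cell genes had 1 increase in 11 (9.09%), Tppp3 (1.72 ± 0.38, adjusted p = 0.0155), with a median of -0.59 in the other direction. Lymphatic endothelial genes had 1 in 8 (12.5%), Lyve1 (1.06 ± 0.26, adjusted p = 0.0286). None of these 3 calls held without embryo 4, and those of Scgb1a1 and Tppp3 were also lost without embryo 3, P1 pup d or P1 pup e, and that of Lyve1 without P1 pup d or P1 pup e.

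Heart muscle genes had no limma call in 15 (3 and 3 were higher and lower at an unadjusted p under 0.05), 1 was called higher without embryo 3 and 1 lower without embryo 4, and their summed FPKM was 90.9 and 193 in the embryos and 677, 206, 71.2 and 153 in the pups, highest in P0.5 pup e and lowest in P1 pup d. Neither 6 mesothelial nor 5 skeletal muscle and cartilage genes had a call, with 1 and 0 and 0 and 0 higher and lower at an unadjusted p under 0.05, and 1 mesothelial gene was called higher without P1 pup d. The part of such neighbouring cells in the other results was not tested. The summed level of the neutrophil list in FPKM was 455 and 316 in the embryos and 889, 429, 1104 and 612 in the pups. That of the macrophage list was 268 and 177 in the embryos and 269, 244, 375 and 258 in the pups.

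Among antioxidant genes 2 of 38 rose (5.26%) and 1 fell (2.63%), near the 2.72% and 1.28% of all genes, with a median of -0.01. Sod3, the superoxide dismutase of the extracellular space, lay at 0 and 1.73 FPKM in the embryos and 4.87, 5.78, 18.03 and 8.80 FPKM in the pups, a log2 fold change of 2.49 ± 0.49 (adjusted p = 0.00786). The flavin monooxygenases Fmo1 and Fmo2 moved apart. Fmo1 lay at 33.9 and 33.4 FPKM in the embryos and 54.6, 66.7, 75.6 and 104 FPKM in the pups (1.10 ± 0.22, adjusted p = 0.00895). Fmo2 was at 358 and 180.3 FPKM in the embryos and 90.9, 29.4, 133 and 95.8 FPKM in the pups (-1.72 ± 0.34, adjusted p = 0.0085). For each of the 3 genes embryos and pups did not overlap, none was called without embryo 4, and 2 members were called lower without P0.5 pup f and 4 without the zero-rich libraries. Nfe2l2, which encodes the master factor of the antioxidant response, was at 88.1 and 59.5 FPKM in the embryos and 30.3, 38.8, 44.9 and 46.4 FPKM in the pups (adjusted p = 0.092). Prdx1, a peroxiredoxin, was at 99.8 and 62.9 FPKM in the embryos and 29.98, 48.2, 49.98 and 31.9 FPKM in the pups (adjusted p = 0.0805). Both were lower in all pups and missed the threshold.

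Of 17 glucocorticoid response genes 2 rose, Dusp1 and Sgk1, and 2 fell, Hif3a and Cdkn1c, all of them given above. Each count was 11.8% of the list, beside 2.72% and 1.28% of all genes. The standard target Fkbp5 was at 14.7 and 14.0 FPKM in the embryos and 5.29, 5.02, 13.99 and 9.73 FPKM in the pups. Tsc22d3 lay at 79.96 and 96.1 FPKM in the embryos and 58.4, 51.7, 187 and 88.8 FPKM in the pups, highest in P1 pup d. Neither was called. The 2 increases held without embryo 4, and both decreases were lost without embryo 4 or embryo 3. Heat shock and unfolded protein genes had 2 increases in 30 (6.67%, beside 2.72% of all genes), with a median of -0.004. These were the chaperone genes Calr (225 and 378 FPKM in the embryos and 555, 724, 669.8 and 639 FPKM in the pups, 1.14 ± 0.26, adjusted p = 0.0191) and Creld2 (1.87 ± 0.47, adjusted p = 0.0318). Neither was called without embryo 4, and 1 was called without embryo 3, P1 pup d or P1 pup e. Of 19 clock genes Cry2 rose (8.51 and 11.98 FPKM in the embryos and 31.4, 18.9, 29.1 and 26.9 FPKM in the pups, 1.29 ± 0.32, adjusted p = 0.0285), and it was lost without embryo 4, embryo 3, P1 pup d or P1 pup e. Without P0.5 pup e, 1 clock gene was called lower. The 1 increase among 19 clock genes was 5.26%, beside 2.72% of all genes.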

How the data were processed

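Alveolar septa were taken by laser capture from frozen lungs, and total RNA was depleted of ribosomal RNA before stranded libraries were made. Per the labels, reads were aligned with STAR 2.5.1 to mm10, and the FPKM values the authors deposited were made with Cufflinks 2.2.1; settings and annotation are not given in the sources used here. Read depth is therefore unknown, and no counting interval was computed. Of 22779 gene IDs, 944 stood on lines that differ, and only the highest of these lines by mean was kept.

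From the deposited FPKM, log2(FPKM + 1) was computed for the 14616 genes that reached an FPKM of 1 in 4 or more of 29 libraries. One fit with limma 3.58.1 (R 4.3.3, empirical Bayes with a trend) gave a mean to each of the 15 ages, so the spread is pooled over all 29 libraries, and the tests were two-sided. P-values were adjusted by Benjamini-Hochberg over all genes (threshold 0.05), and intervals are 95%. Fold changes understate the change of genes with low levels. The fit was tested on simulated data. Promoter sequences and gene names came from RefSeq (GRCm38.p6), whose table gave symbols to 22718 IDs. Python 3.11.15, pandas 2.3.3 and matplotlib 3.10.9 were used.

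The members and the 36 gene lists were chosen with earlier results of these data known. Named genes are the 15 largest changes each way among called genes with a mean of at least 5 FPKM in the higher group and no overlap (370 and 166 genes met this), up to 4 members of each list with the smallest p, called members that go against their list, and members with a role of their own. Genes given besides, and the genes of the plot of levels by age, were picked with their values in view. The results were recomputed with other filters, another pseudocount (0.1), other scaling, a fit of the compared ages alone, a stricter threshold and leaving out libraries. Some genes are counted in their lists and not reported here.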

Additional observations from a re-analysis of the deposited data

Results flagged for a closer look

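Among the 4 pups, 226 genes described or listed here were examined for a library that stood apart from the other 3, by Dixon's test of the gap to the nearest pup against the group's range at its 95% critical value. In 23 genes a pup did. Chance alone sets about 1 in 20 such groups apart, so a part of these is expected without any difference between animals, and P0.5 and P1 pups were pooled.

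P0.5 pup f was the highest pup for the cell division genes Mki67 (240 FPKM), Top2a (58.7 FPKM) and Cenpf (33.6 FPKM), as the report describes for the whole list. It was the lowest for Slc12a2 (27.4 FPKM) and for the platelet gene Gp5 (listed at 0).

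P0.5 pup e was the highest for Rian (55.9 FPKM), the lactate carrier gene Slc16a1 (8.15 FPKM), Clock (26.9 FPKM), the mucin gene Muc5b (11.04 FPKM), the atrial myosin gene Myl4 (98.3 FPKM), the muscle myosin gene Myh8 (0.793 FPKM), Nos3 (5.46 FPKM) and Igf2 (107.6 FPKM). It was the lowest for Egln1 (10.2 FPKM).

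P1 pup d was the highest for Hyal1 (23.0 FPKM), Ccna1 (1.70 FPKM), Pygl (25.7 FPKM), Emcn (38.8 FPKM), the T cell gene Cd3d (5.01 FPKM), the lymphatic chemokine gene Ccl21a (161.9 FPKM) and Gapdh (83.0 FPKM), and the lowest for the chaperone gene Hspa5 (289.6 FPKM). P1 pup e was the highest for Hsp90aa1 (103.0 FPKM). No cause was tested.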

How the results depend on the processing

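With limma fitted to the compared ages alone, 0 genes were called higher and 0 lower at birth (1640 and 1256 at an unadjusted p under 0.05). In that fit the spread rests on the compared libraries only, and the reason for the loss of calls was not tested. When the change had to exceed 1 on the log2 scale, 2 were called higher and 0 lower. Leaving out the 3 libraries of other ages that are rich in zeros gave 534 higher and 305 lower, and leaving out 1 compared library gave 29 to 426 higher and 11 to 212 lower. Summed lines, scaling by median ratios, quantile normalization, a pseudocount of 0.1, a filter at 5 FPKM and no filter gave 328 to 445 higher and 149 to 223 lower. In all of these settings no called gene changed sign, but most called genes had no overlap between embryos and pups. For those, leaving out 1 library could not change the sign. For P1 against P0.5, without a filter 2 were higher and 3 lower, without the zero-rich libraries 1 was higher, and without 1 library 0 to 1 each way. For P1.5 and P2.5 against E16.5, the compared ages alone gave 835 and 873, the stricter threshold 151 and 97, and leaving out 1 library 717 to 1230 higher and 491 to 1177 lower. Of 87 named genes called, 76 to 87 were also called under the other pseudocount, filters, scalings and summed lines and 86 without the zero-rich libraries. No paired analysis was possible because embryo numbers and pup letters pair no animals between ages. With 2 embryos, unknown read depth and no batch labels, effects of embryo, preparation and age cannot be told apart.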
